A study of Homo sapiens with 183 samples.

Results

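AsPC-1 is an established human pancreatic ductal adenocarcinoma line, and CB-6644 is a small-molecule inhibitor of the ATPase activity of the RUVBL1/2 complex. The data described here are 9 AsPC-1 libraries of 183 in the series, all collected after 24 h in CB-6644. In 3 of them the cells carried an empty lentiviral vector (EV). Another 3 expressed the RUVBL1 A62T variant, and a further 3 expressed the RUVBL2 dF109 variant, a deletion of F109. Both were described as variants that confer resistance to CB-6644. The labels name no knockout in these cells, so each variant was expressed beside the endogenous genes. Each genotype also had 1 library after 24 h in DMSO, the solvent of the drug, which was described without a test. Genes were compared between each variant and EV in CB-6644, and a gene was counted as a member when it passed the test in the same direction for both. Of 19875 gene names, 12350 averaged 1 TPM or more across these libraries and were tested, with RUVBL1 and RUVBL2 left out because the constructs add to their signal. A total of 2247 were higher and 3425 were lower in both variants. TPM expresses a transcript as a share of all transcripts in its library, scaled to a fixed total and corrected for length, and it carries no read depth, so the depth is unknown. Means are given ± SD over 3 libraries, and log2 differences are on the log2(TPM + 1) scale, which understates changes at low TPM.

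RUVBL1 and RUVBL2 are AAA+ ATPases that form a joint ring. The ring is a core part of the chromatin remodelers INO80, SRCAP and TIP60, and of R2TP, a co-chaperone that assembles large complexes such as RNA polymerase II, the PIKK kinases and small nucleolar ribonucleoproteins. It has also been linked to transcription factors such as MYC and KLF5, a zinc finger factor of epithelial identity. The question put to these libraries is which transcripts differ under CB-6644 when cells also hold a resistant subunit. The 2 comparisons share the same 3 EV libraries, so the values are given side by side and no overlap is tested.

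The transgenes were clear in every library. RUVBL1 (chromosome 3, 128064785 to 128153914, GRCh38.p14) reached 2964, 2766 and 2824 TPM in the A62T libraries, against 74.5, 71.4 and 75.2 in EV and 89.8, 87.1 and 90.1 in dF109. RUVBL2 (chromosome 19, 48993448 to 49015995) reached 2004, 2178 and 1889 TPM in the dF109 libraries, against 119.5, 124.7 and 117.2 in EV and 110.9, 110.3 and 115.01 in A62T. These values do not separate the endogenous mRNA from the transgene. Each library held from 12104 to 12693 genes at 1 TPM or more in CB-6644 and from 11767 to 12009 in DMSO. The first principal component held 61.8% of the variance and placed the 3 EV libraries in CB-6644 (from 28.3 to 39.3) apart from the 9 others, DMSO included (0.833 at most). The second component (16.9%) separated libraries within groups: A62T replicate 1 (12.5) lay apart from A62T replicates 2 and 3 (-0.00821 and 3.06), and dF109 replicates 1 and 2 (15.2 and 18.7) lay apart from dF109 replicate 3 (2.80). All 14 epithelial markers checked were at 1 TPM or more in all 12 libraries. In both variants 9 of them were higher than in EV (64.3%, against 18.2% of all genes). Their summed level was from 9561 to 10429 TPM in EV, from 15601 to 16294 in A62T, from 16074 to 16769 in dF109 and from 18094 to 20800 in DMSO. Of 6 acinar markers in the table, 5 were below 1 TPM in all 12 libraries. Among fibroblast markers 6 of 7 were below 1 TPM throughout, with LUM as the exception. The 7 summed to between 99.98 and 142 TPM per library, so nearly all of that was LUM. In a list of 8 leukocyte and endothelial markers, 5 were below 1 TPM throughout, and CD68 was at 1 TPM or more in all 12. The others were at 1 TPM or more in some libraries only. The 2 members tested, CD68 and PTPRC, were lower in both variants. The labels place all 12 libraries in 1 batch and do not say whether replicates came from separate cultures, so the p-values measure the spread between these libraries, which may be technical.

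With A62T, 2651 genes (21.5% of those tested) were higher and 4599 (37.2%) were lower than in EV in CB-6644, by limma with Benjamini-Hochberg adjustment over all genes at a threshold of 0.05. For dF109, 2889 genes (23.4%) were higher and 3788 (30.7%) were lower. The 2247 genes higher in both made up 18.2% of genes tested, and the 3425 lower in both 27.7%. They were 84.8% of the genes higher with A62T and 77.8% of those higher with dF109, and 74.5% and 90.4% of the genes lower with each. In 2139 of the higher genes all 6 variant libraries lay above all 3 EV libraries, and in 3377 of the lower genes all 6 lay below. Most of these differences were small. The median log2 difference of the higher genes was 0.39 with either variant, and that of the lower genes was -0.41 with A62T and -0.37 with dF109. A difference of at least 1 on the log2 scale for both variants, a doubling or more of TPM + 1, was reached by 60 higher and 113 lower genes. The balance of higher and lower genes depended on how libraries were scaled. The median log2 difference of all genes was -0.09 with A62T and -0.04 with dF109, and became 0.03 for both after scaling by the median of ratios, which counted 3309 genes as higher in both and 2502 as lower.

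The DMSO libraries show where these genes stood without the drug. In EV cells 538 genes (4.36%) differed by at least 1 on the log2 scale between the mean in CB-6644 and the DMSO library. The same count was 8 genes (0.0648%) in A62T cells and 105 (0.850%) in dF109 cells. Taken library by library, it ran from 496 to 716 genes in EV and from 13 to 26 in A62T. In dF109 it was 190 and 303 in replicates 1 and 2 but 36 in replicate 3, so the count for dF109 moved with the libraries that stood apart on the second component, whose part was not tested. Of the 60 genes at least 1 log2 unit higher in both variants, 60 had an EV DMSO level above all 3 EV libraries in CB-6644, and for the 113 lower genes 108 had an EV DMSO level below all 3. The median change of the 60 genes from DMSO to CB-6644 was -1.26 in EV, -0.15 in A62T and -0.17 in dF109. The median change of the 113 lower genes was 1.23, 0.29 and 0.53. The median change of all genes was 0.10 in EV, 0.10 in A62T and 0.23 in dF109. The 60 and 113 genes were chosen partly by these same EV libraries, so the counts and EV medians are not independent of that choice. With 1 DMSO library per genotype these are descriptions.

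Among the genes that were higher with both variants, the largest difference shared by both was that of EDAR, the receptor for ectodysplasin in the tumor necrosis factor receptor family (chromosome 2, 108894471 to 108989220). EDAR was at 4.53, 3.94 and 4.74 TPM in the EV libraries, 29.2, 28.8 and 27.99 in A62T and 28.3, 28.1 and 27.7 in dF109. The 6 variant libraries were nearly level and close to their DMSO libraries (28.4 and 28.2 TPM), and EV in DMSO was at 20.7. The log2 difference was 2.46 (standard error 0.06, adjusted p = 7.29e-09) for A62T and 2.43 (standard error 0.06, adjusted p = 8.61e-09) for dF109.

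FGF19, a secreted growth factor that acts as a hormone in bile acid control (chromosome 11, 69698238 to 69704022), came next. It was at 6.85, 7.303 and 8.01 TPM in EV, 33.4, 32.1 and 35.6 in A62T and 36.01, 38.3 and 36.5 in dF109. In DMSO it was at 40.03, 42.3 and 53 TPM in the 3 genotypes, so the variant cells lay much nearer to the untreated level than EV did. Its log2 differences were 2.05 (standard error 0.06, adjusted p = 1.91e-08) and 2.18 (standard error 0.06, adjusted p = 1.42e-08). RGS2, which shortens signalling by G proteins, was at 85.5, 88.2 and 85.4 TPM in EV, 269, 284 and 267 in A62T and 272, 261 and 289 in dF109. EV in DMSO held 318 TPM. Both variants differed from EV by 1.65 on the log2 scale (adjusted p = 7.29e-09 and 8.61e-09).

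KRT23, a type I keratin, showed another pattern. It was at 1.47, 1.41 and 1.64 TPM in EV, 7.93, 7.96 and 8.19 in A62T and 9.24, 7.77 and 9.29 in dF109. In DMSO, however, EV cells held only 2.78 TPM against 6.38 and 9.69 in the variant cells, so part of its difference of 1.85 and 1.96 on the log2 scale was present without the drug. DEPTOR, an inhibitor of the mTOR kinase, went the same way, with means of 11.5 ± 0.988 TPM in EV, 37.2 ± 0.715 in A62T and 48.3 ± 0.9296 in dF109, and 24.2, 44.6 and 55.7 in DMSO. The others of the 10 were PRR15L, the protein phosphatase inhibitor PPP1R1B, the secreted kinase PKDCC, the caveolar protein CAVIN2 and C2orf88. Their log2 differences were from 1.51 (C2orf88) to 1.98 (PRR15L) with A62T and from 1.74 to 2.50 with dF109.

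**Figure D1:**
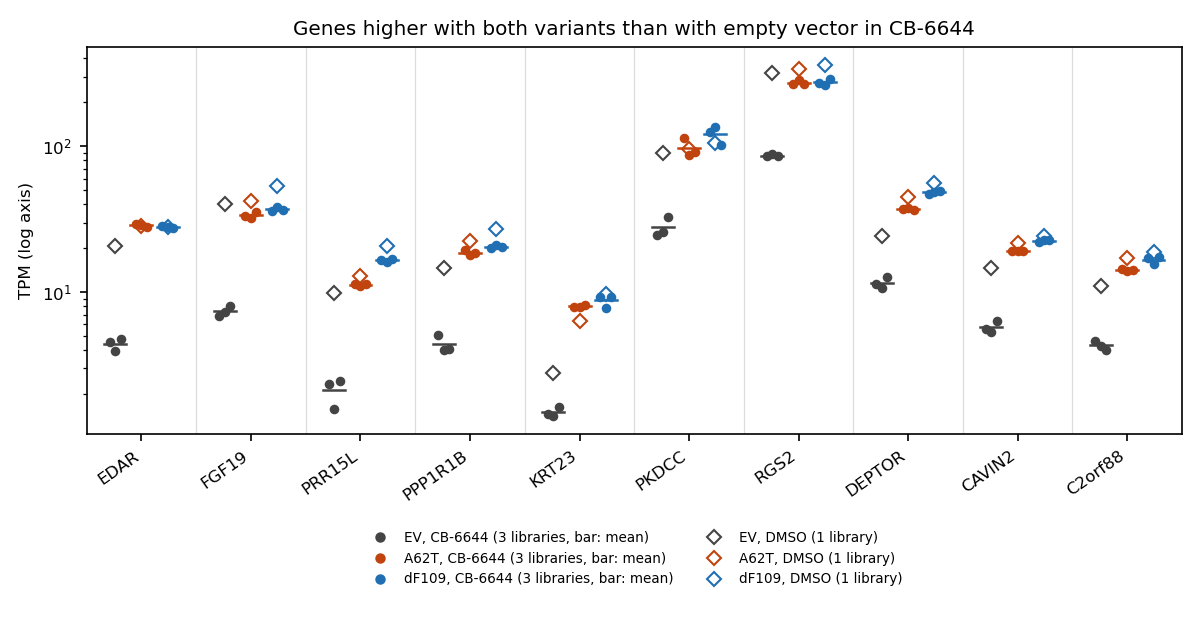
TPM on a log axis of the 10 genes with the largest rise in both variants, for the 3 CB-6644 libraries of each genotype (dots, with a bar at the mean) and the DMSO library (diamonds). By the rule that chose the genes, all 6 variant libraries lie above the 3 EV libraries for each. The EV diamond lies above the EV dots, as for EDAR at 20.7 against 4.53, 3.94 and 4.74 TPM.

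Genes that encode the remodelers built on the RUVBL1/2 ring were among the higher transcripts. Of 31 subunits of INO80, SRCAP and TIP60, 14 were higher in both variants (45.2%, against 18.2% of all genes) and 2 were lower. KAT5, the acetyltransferase of the TIP60 complex, was at 18.3, 18.4 and 17.1 TPM in EV, 49.4, 45.6 and 48.4 in A62T and 35.1, 33.6 and 34.96 in dF109, with 53.2 in EV without drug. The A62T libraries were thus closest to the DMSO level and the dF109 libraries lay between. MCRS1, an INO80 subunit, was at 39.3, 40.6 and 41.4 TPM in EV, 90.96, 87.7 and 91.7 in A62T and 76.5, 80.3 and 72.3 in dF109, and its EV DMSO level was 102. DMAP1 and ACTR5 rose by 0.86 and 0.52 with A62T and by 0.70 and 0.63 with dF109. MORF4L1 and BRD8 passed the test with neither variant.

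The complexes that R2TP assembles were mixed. For R2TP and its adaptors 1 of 17 genes was higher in both and 5 were lower (29.4%, close to the 27.7% of all genes), and SPAG1 had the largest fall (-0.66 and -0.44). None of 16 RNA polymerase II subunits was higher in both and 9 were lower, such as POLR2L (-0.81 and -0.69). After median-of-ratios scaling 4 subunits were lower and 2 were higher, beside 2502 and 3309 of 12338 genes tested. Among 9 PIKK kinases and their TTT cofactors, TRRAP was higher and 1 gene was lower. Factors of ribosome biogenesis and small nucleolar particles were more often higher, 19 of 40 (47.5%, against 18.2% of all genes) beside 2 lower. The pseudouridine synthase DKC1 was at 82.2, 78.5 and 84.9 TPM in EV, 128, 135 and 127 in A62T and 139, 131 and 139 in dF109. Its variant libraries did not overlap EV and were near the EV DMSO level of 126 TPM. Cytosolic ribosomal proteins had 46 of 78 members higher and 2 lower, with median differences of 0.18 and 0.17. The count of higher members was 26 in the fit that also held the DMSO libraries, 34 without EV replicate 3 and 34 with median-of-ratios scaling, where the medians were 0.31 and 0.24. In this list the DMSO libraries of the variants were already above that of EV, by medians of 0.25 for A62T and 0.32 for dF109, and the EV median change under CB-6644 was only -0.05.

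Many genes of epithelial identity were higher. Of 28 endodermal and epithelial transcription factors tested, 15 were higher in both variants (53.6%, against 18.2% of all genes) and 4 lower. EHF, an ETS factor of epithelia, was at 59.5, 57.5 and 59.6 TPM in EV, 169, 175 and 166 in A62T and 139, 132 and 146 in dF109, with 175 TPM in EV in DMSO. A62T libraries thus lay near the untreated EV level, with dF109 below them and all 6 above EV in CB-6644. MYC, which drives growth genes, had means of 36.4 ± 2.66 TPM in EV, 76.5 ± 4.63 in A62T and 72.9 ± 6.12 in dF109, against 72.4 in EV in DMSO. KLF5 was higher by 0.42 (standard error 0.04, adjusted p = 1.38e-05) with A62T and 0.35 (standard error 0.04, adjusted p = 4.76e-05) with dF109, from 77.1, 77.5 and 77 TPM in EV to 106, 102 and 102 and 103, 99.5 and 94.1. The EV DMSO library held 131 TPM, above all variant libraries. HNF4A and TCF7L2 passed the test with neither variant.

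Keratins and basal or squamous genes had 16 of 30 tested members higher in both variants (53.3%, against 18.2% of all genes) and 0 lower. KRT19, a keratin of simple and ductal epithelium, was at 1167, 1186 and 1075 TPM in EV, 2558, 2550.2 and 2780.0 in A62T and 2454, 2593 and 2531 in dF109, and at 2894 in EV in DMSO. ITGB4, the integrin of hemidesmosomes, had means of 207 ± 17.1 TPM in EV, 597 ± 51.4 in A62T and 493 ± 65.5 in dF109. SERPINB5, a serpin whose protein the study used as a readout of KLF5 activity, rose by 0.91 and 0.66, from a mean of 71.97 ± 2.62 TPM in EV to 136 ± 1.89 and 114 ± 3.57. It did not reach the EV DMSO level of 182 TPM. Among mucins, secreted and adhesion genes of classical cells, 9 of 22 were higher and 3 lower, led by the tight junction protein CLDN2 (1.94 and 1.51) and the intestinal antigen GPA33 (1.27 and 1.47).

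Markers of the classical state did not all follow. MYO1A, a brush border myosin, was at 27.4, 27.8 and 28.9 TPM in EV, 61.95, 57.01 and 59.99 in A62T and 51.9, 53.7 and 49.5 in dF109, near 59.7 in EV in DMSO. ELF3, an epithelial ETS factor, differed by less, 0.27 (standard error 0.05, adjusted p = 5.60e-04) and 0.39 (standard error 0.05, adjusted p = 5.77e-05). MUC1, a membrane mucin, was at 12.6, 13.7 and 18.9 TPM in EV, 23.99, 15.3 and 19.3 in A62T and 21.3, 25.2 and 11.5 in dF109. These groups overlapped, MUC1 did not pass the test (adjusted p = 0.259 and 0.364), and its highest values were in the libraries at the upper end of the second component. FA2H, a fatty acid hydroxylase, had log2 differences of -0.13 and -0.06 and passed with neither variant (adjusted p = 0.447 and 0.753).

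The published Moffitt signatures of the classical and basal-like subtypes of pancreatic cancer each held more higher than lower genes. In the Classical signature 62 of 143 tested genes were higher in both variants (43.4%) and 22 lower (15.4%). For the Basal-like signature 36 of 119 were higher (30.3%) and 26 lower (21.8%). Among all genes 18.2% were higher and 27.7% lower. SEMA4G and TMC5 of the Classical signature rose by 1.33 and 1.31 with A62T and by 1.34 and 1.42 with dF109. DKK1, a secreted inhibitor of WNT signalling on the Basal-like signature, rose by 1.63 and 1.503. Of 68 tested genes that the study lists as direct KLF5 targets in AsPC-1, 31 were higher and 7 lower. Of 70 genes whose newly made RNA it lists as lower after CB-6644 in AsPC-1, 32 were higher and 8 lower. The study chose these 2 lists in the same cell line and with the same drug or factor, so they are not independent evidence of direction. TIMP2 and TMBIM1, among the KLF5 targets, passed with neither variant.

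**Figure D2:**
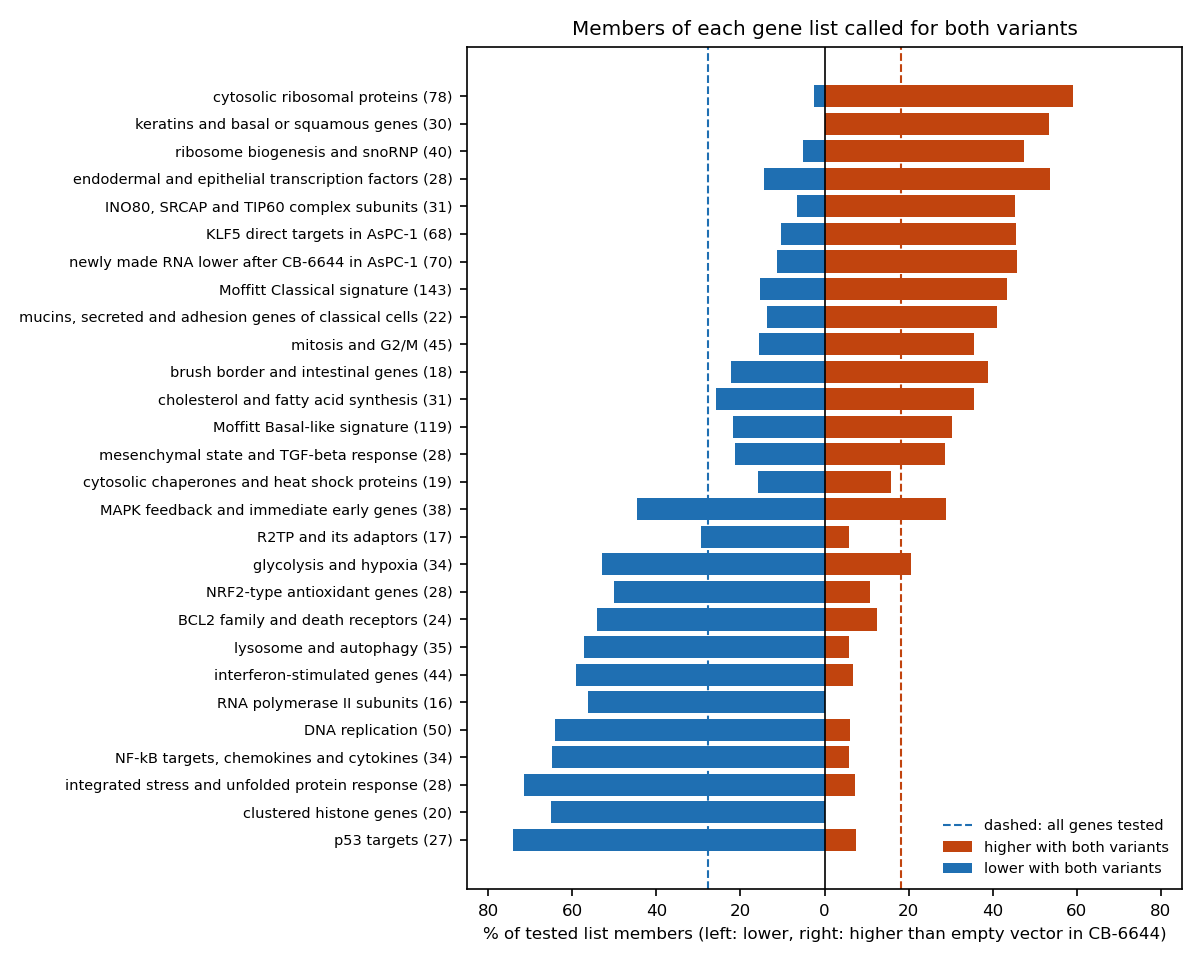
Share of the tested members (number in brackets) of each gene list with at least 15 of them, marker lists left out, that were higher (right) or lower (left) in both variants than in EV in CB-6644, in percent. Dashed lines mark all genes tested, 18.2% higher and 27.7% lower, and the shares reach 74.1% lower for p53 targets and 59% higher for cytosolic ribosomal proteins.

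In the lower direction the 3 largest differences shared by both variants were those of IL1A, SESN2 and ATF3. IL1A, an inflammatory cytokine (chromosome 2, 112773925 to 112784493), was at 21.5, 20.2 and 22.1 TPM in EV, 5.06, 5.17 and 5.51 in A62T and 2.56, 2.77 and 3.13 in dF109. Its DMSO levels were 16.6, 5.15 and 2.33 TPM, so the 3 genotypes were ordered in the same way without the drug. The log2 difference in CB-6644 was -1.83 (standard error 0.08, adjusted p = 9.48e-08) with A62T and -2.54 (standard error 0.08, adjusted p = 1.42e-08) with dF109.

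SESN2, a stress-induced inhibitor of mTORC1 (chromosome 1, 28259518 to 28282491), was at 30.1, 31.03 and 27.3 TPM in EV, 9.75, 9.08 and 9.29 in A62T and 7.31, 6.88 and 6.04 in dF109. In DMSO it was at 24.3, 9.12 and 5.47. Again the EV library without drug was above all 6 variant libraries with drug. ATF3, a stress-induced transcription factor (chromosome 1, 212565407 to 212620777), was at 84.9, 88.6 and 76.6 TPM in EV, 29.5, 27.7 and 28.9 in A62T and 19.2, 18.9 and 13.9 in dF109. Its DMSO levels were 57.2, 26.5 and 12.8 TPM. The log2 differences of ATF3 were -1.503 and -2.21, and those of SESN2 were -1.55 and -1.98, with adjusted p of at most 2.40e-06 by limma.

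Other lower genes had a low level in EV without the drug. PGAM2, a phosphoglycerate mutase best known from muscle, was at 15.1, 14.4 and 25.7 TPM in EV, 4.85, 4.41 and 4.33 in A62T and 4.799, 7.53 and 5.36 in dF109, and EV in DMSO was at 4.19 TPM, below all of them. ENO3, the muscle form of enolase, was at 30.8, 28.9 and 37.3 in EV, 12.4, 9.76 and 12 in A62T and 9.95, 12.5 and 9.22 in dF109, with 10.01 in EV in DMSO. Both genes were highest in EV replicate 3. LOC105372412 and INCA1, an inhibitor of cyclin-dependent kinases, had the same arrangement, with EV in DMSO at 1.22 and 2.95 TPM against EV means in CB-6644 of 9.61 ± 1.51 and 13.9 ± 2.93. C11orf96, the chloride channel BEST1 and RND1 complete the 10, with log2 differences from -1.49 (C11orf96) to -1.45 (BEST1) with A62T and from -1.89 to -1.83 (RND1) with dF109. These genes did not share that arrangement. Their EV DMSO levels were 3.58 (C11orf96), 7.25 (BEST1) and 5.52 TPM (RND1), above all 6 variant libraries and below all 3 EV libraries in CB-6644.

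**Figure D3:**
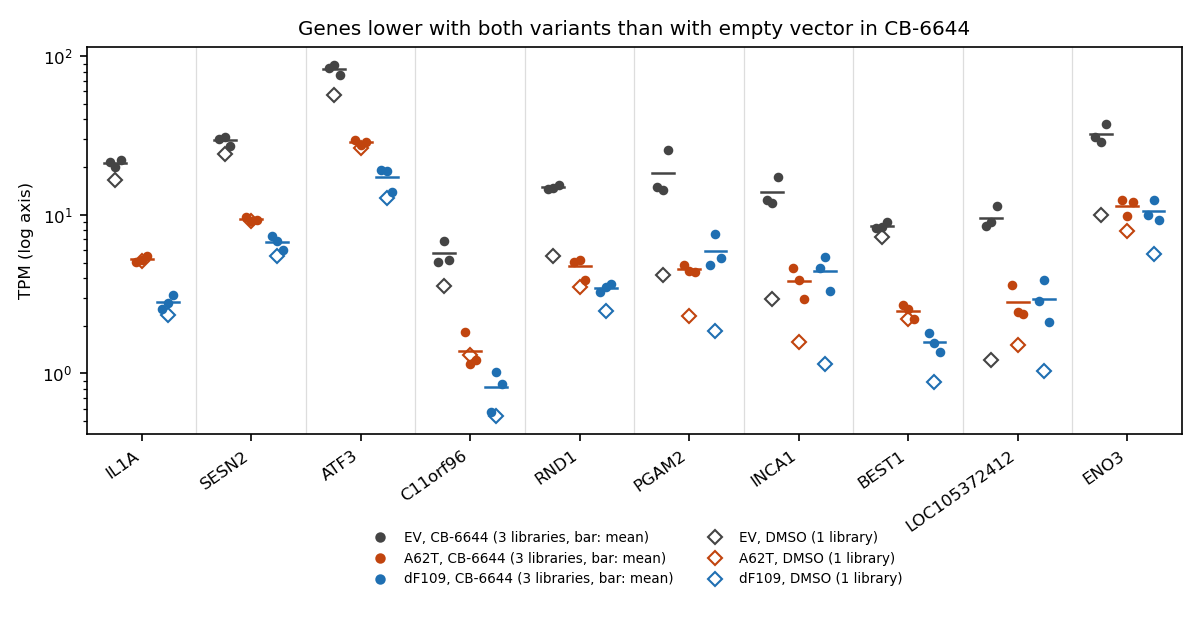
TPM on a log axis of the 10 genes with the largest fall in both variants, drawn as for the genes that rose (dots, CB-6644 libraries with a bar at the mean, and diamonds, DMSO libraries). For IL1A, SESN2, ATF3, C11orf96 and BEST1 the EV diamond lies well above the variant libraries, while for PGAM2 it is at 4.19 TPM, below the EV libraries at 15.1, 14.4 and 25.7 TPM.

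The integrated stress and unfolded protein response, in which the factor ATF4 is made when translation is held back and then activates genes of amino acid supply and stress, had 20 of 28 tested members lower in both variants (71.4%, against 27.7% of all genes) and 2 higher. The median differences were -0.41 and -0.49. CHAC1, which degrades glutathione, was at 22.95, 24.3 and 18.8 TPM in EV, 7.92, 7.58 and 7.23 in A62T and 4.63, 5.19 and 4.601 in dF109, and EV in DMSO was already at 22.5. DDIT3, a stress factor also called CHOP, was at 136, 142 and 142 TPM in EV, 69.7, 76.4 and 69.95 in A62T and 57.7, 60.9 and 55.7 in dF109, and its EV level in DMSO was 93.2. EV libraries were above all variant libraries for both genes. Over the list the DMSO libraries of A62T and dF109 differed from that of EV by medians of -0.24 and -0.45. For all genes these medians were -0.10 and -0.17. On the list the median change of EV from DMSO to CB-6644 was 0.08.

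ATF4 mRNA ran the other way, a case picked out after the values were seen. It was at 259, 250.4 and 261 TPM in EV, 517, 497 and 476 in A62T and 368, 373 and 363 in dF109, with no overlap between any pair of groups. In DMSO the EV, A62T and dF109 libraries held 342, 459 and 326 TPM. Its log2 differences from EV were 0.95 (standard error 0.04, adjusted p = 6.80e-08) and 0.52 (standard error 0.04, adjusted p = 2.60e-06). CALR, an endoplasmic reticulum chaperone, was the other member of the list that was higher in both. The mRNA of ATF4 does not measure the protein, whose synthesis is controlled in translation.

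Binding sites of the ATF4 and C/EBP type can be written TGATGNAA, and the 250 bases before the start of each gene were searched for it on both strands in RefSeq promoters. Promoters were at hand for 9569 tested genes, of which 128 (1.34%) held the letters. They were found in 4 of 77 promoters of genes lower by at least 1 log2 unit in both variants (5.19%) and in 0 of 35 of those higher by as much. The 4 were ATF3, CHAC1, GOT1 and HSD17B3, and the last 2 are not on the stress list. Of 18 stress list genes lower in both variants with a promoter at hand, 3 held the letters (ATF3, CHAC1 and HERPUD1). ATF3 and CHAC1 had 2 of the 4 largest falls of that list, which is why their stretches are shown. Each is written 5′ to 3′ on the strand of the gene, with the match in capitals and with coordinates of GRCh38.p14.
ATF3, plus strand, chr1:212565206-212565233: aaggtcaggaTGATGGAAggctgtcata
CHAC1, plus strand, chr15:40953252-40953279: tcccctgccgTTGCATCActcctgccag
The first capital lies 191 bases before the start of ATF3 and 209 before that of CHAC1, where the match is on the opposite strand. Such matches are letters in a window and do not show that a factor was bound.

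Genes known as targets of p53 were lower as a group, with 20 of 27 lower in both variants (74.1%, against 27.7% of all genes) and 2 higher. The medians were -0.48 and -0.46. The median change of EV on this list from DMSO to CB-6644 was 0.46. CDKN1A, the cyclin-dependent kinase inhibitor p21, was at 144, 149 and 164 TPM in EV, 60.3, 56.04 and 61.7 in A62T and 60.5, 59.9 and 58.7 in dF109, with EV in DMSO at 81.9. GADD45A, which slows the cell cycle after damage, was at 69.95, 75.2 and 71.1 TPM in EV, 29.4, 26.9 and 29.4 in A62T and 21.7, 23.1 and 20.8 in dF109. For both genes all EV libraries were above all variant libraries. The death receptor TNFRSF10B had means of 203 ± 20.1 TPM in EV, 103 ± 6.77 in A62T and 110.0 ± 5.61 in dF109. SESN2 is on this list and on the stress list. MDM2, a direct p53 target in most cells, and POLK passed with neither variant. Members of the BCL2 family and death receptors had 13 of 24 genes lower and 3 higher.

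Inflammatory transcripts were lower too. NF-kB targets, chemokines and cytokines had 22 of 34 tested members lower in both (64.7%, against 27.7% of all genes) and 2 higher. The medians were -0.48 and -0.65. IL32, an intracellular cytokine, had means of 222 ± 11.2 TPM in EV, 98.4 ± 3.12 in A62T and 88.6 ± 3.56 in dF109. For this list the DMSO libraries differed as much as those in CB-6644, by medians of -0.47 with A62T and -0.66 with dF109, and the median change of EV from DMSO to CB-6644 was 0.17. Interferon-stimulated genes had 26 of 44 lower and 3 higher, with medians of -0.34 and -0.41. Between DMSO libraries the medians of this list were -0.12 with A62T and -0.38 with dF109, beside -0.10 and -0.17 for all genes. The median change of EV on this list under CB-6644 was 0.19. IRF1, a transcription factor of that response, was at 66.8, 65.8 and 78.1 TPM in EV, 28.1, 28.7 and 27.02 in A62T and 28.7, 29.2 and 27.3 in dF109, and at 34.7 in EV in DMSO.

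Genes of DNA replication were lower with both variants in 32 of 50 cases (64.0%, against 27.7% of all genes) and higher in 3. The medians were -0.38 and -0.26. CCNE2, a cyclin of the entry into S phase, had means of 25.8 ± 0.4205 TPM in EV, 13.5 ± 0.235 in A62T and 13.4 ± 0.703 in dF109, against 17.2 in EV in DMSO. The list had a median change of -0.03 in EV from DMSO to CB-6644. Its medians between DMSO libraries were -0.37 and -0.39, beside -0.10 and -0.17 for all genes. The list was thus lower in the variant cells by about as much without the drug. Mitosis genes differed in direction, 16 of 45 higher in both (35.6%, against 18.2% of all genes) and 7 lower. With median-of-ratios scaling 4 were lower, beside 2502 of all 12338 genes tested. PLK1, the polo-like kinase, was at 47.98, 48.02 and 53.7 TPM in EV, 92.6, 73.4 and 81.4 in A62T and 82.4, 86.1 and 67.3 in dF109, and CCNB1, the mitotic cyclin, had means of 146 ± 1.92, 224 ± 8.64 and 201 ± 5.17.

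Clustered histone genes had 13 of 20 members lower and 0 higher, with a median change from DMSO to CB-6644 of 1.08 in EV against 0.33 in A62T and 0.58 in dF109. HIST1H2BC was at 23.6, 27.3 and 31.6 TPM in EV, 10.6, 9.31 and 14.9 in A62T and 12.2, 11.7 and 14.3 in dF109. Histone genes are near-identical copies whose reads can be shared between them, and most of their mRNA lacks the poly-A tail on which the libraries were selected, so the values of single members are uncertain. Lysosome and autophagy genes had 20 of 35 lower and 2 higher, a count of 13 after median-of-ratios scaling and 12 in the fit that also held the DMSO libraries. The autophagy protein MAP1LC3B had means of 144 ± 7.69 TPM in EV, 75.9 ± 4.99 in A62T and 69.7 ± 3.56 in dF109. Among all genes 27.7% were lower and 18.2% higher in both variants. Glycolysis and hypoxia genes had 18 of 34 lower (52.9%) and 7 higher (20.6%). NRF2-type antioxidant genes had 14 of 28 lower (50.0%) and 3 higher (10.7%). With the scaling the antioxidant count of lower genes was 8. Of all genes tested with that scaling, 2502 of 12338 were lower in both variants. Genes of MAPK feedback and immediate early genes had 17 of 38 lower (44.7%) and 11 higher (28.9%). Genes of cholesterol and fatty acid synthesis had 8 of 31 lower (25.8%, or 5 genes with the scaling) and 11 higher (35.5%). Mesenchymal and TGF-beta genes had 6 of 28 lower (21.4%) and 8 higher (28.6%). SREBF1, a master factor of lipid synthesis, rose by 1.35 and 1.15. Chaperones had 3 of 19 higher (15.8%) and 3 lower (15.8%), and brush border genes 7 of 18 higher (38.9%) and 4 lower (22.2%). The lower shares of the cholesterol, mesenchymal and brush border lists lay near that of all genes. So did the higher shares of the glycolysis and chaperone lists.

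Some of the differences were also present without CB-6644. A DMSO difference of at least 0.5 of that in CB-6644, in the same direction for both variants, was found in 11.3% of the genes higher in both and in 39.3% of those lower in both. For the genes that differed by at least 1 log2 unit it was 4 of 60 and 32 of 113. Across all genes tested the median difference between DMSO libraries was -0.10 for A62T and -0.17 for dF109. That shift lies in the direction of the lower genes, and its part in these shares was not tested. Across the 113 lower genes the median difference between DMSO libraries was -0.38 for A62T and -0.55 for dF109, and across the 60 higher genes it was 0.17 and 0.16. EV, A62T and dF109 cells carried separate vectors, and with 1 DMSO library each, a difference between populations and a difference between libraries cannot be told apart.

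**Figure D4:**
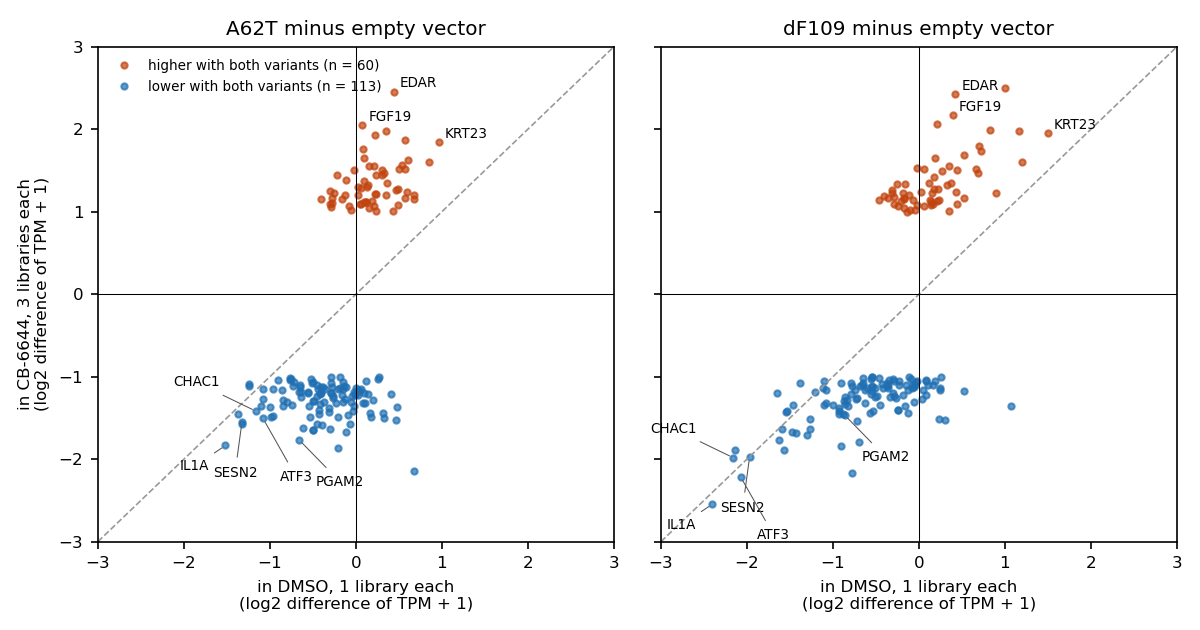
Log2 difference of TPM + 1 between variant and EV in CB-6644 (vertical, means of 3 libraries) against that between the DMSO libraries (horizontal, 1 each), for the 60 genes higher and the 113 lower by at least 1 in both variants, with a dashed line of equality. IL1A, SESN2, ATF3 and CHAC1 lie near the line for dF109, whereas EDAR and FGF19 lie far above it.

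The variants were also compared with each other. A62T was above dF109 for 293 genes (2.37%) and below it for 305 (2.47%), and 1 of these, CYP1A1, differed by at least 1 on the log2 scale. The count depended on single libraries, at 156 genes in all without dF109 replicate 1 and 876 without EV replicate 3, against 598 with every library. Among genes that were higher than EV with both variants, 152 (6.76%) also differed between them, and among the lower genes 151 (4.41%). CYP1A1, an oxidase induced through the aryl hydrocarbon receptor, differed by 1.09 (standard error 0.08, adjusted p = 4.71e-04). It was at 11.3, 11.4 and 9.88 TPM in A62T and 4.78, 4.79 and 4.13 in dF109, and at 12.3, 10.8 and 11.3 in EV. Only dF109 stood apart, and in DMSO it was also the lowest, at 4.31 against 11.3 and 9.16 TPM.

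DHRS9, a dehydrogenase of retinoids and steroids, was at 67.3, 69.1 and 70.2 TPM in A62T, 39.2, 34.7 and 42.01 in dF109 and 24.8, 25.6 and 27.5 in EV. EV in DMSO was at 77.1 TPM, so A62T lay close to the untreated EV level and dF109 between the groups. The difference of A62T from dF109 was 0.82 (standard error 0.07, adjusted p = 5.03e-04). In DMSO dF109 was also the lowest, at 45.96 TPM against 70.3 in A62T. ARL14EPL, MMP1 and SNCG complete the 5 largest rises in A62T, with log2 differences of 0.87, 0.80 and 0.77. The 5 largest in the other direction were ASDURF, BORCS5, LOC107986791, SPATA46 and CREB3L1, from -0.80 (ASDURF) to -0.67 (CREB3L1). Except BORCS5, these 5 had adjusted p from 0.0317 (LOC107986791) to 0.0485 (SPATA46) and each lost the call when single libraries were left out.

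In the stress response list 10 of 28 genes were higher in A62T than in dF109 and 0 were lower, beside 2.37% and 2.47% of all genes. ATF4 (0.43), ATF3 (0.71), CHAC1 (0.56), SESN2 (0.43), DDIT3 (0.30) and TRIB3 (0.60) were among the 10. TRIB3, a pseudokinase that ATF4 induces, was at 83.5, 81.8 and 73.9 TPM in EV, 50.9, 49.4 and 50.7 in A62T and 33.3, 34.8 and 30.7 in dF109. The same order of EV, A62T and dF109 was present in its DMSO libraries, at 87.6, 54.3 and 31.5 TPM. In the Basal-like signature 20 of 119 genes were higher in A62T and 1 was lower, and in the Classical signature 6 of 143 were higher and 18 were lower. KAT5 and MCRS1 of the remodelers were higher in A62T by 0.46 (standard error 0.05, adjusted p = 0.00211) and 0.24 (standard error 0.05, adjusted p = 0.0201).

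**Figure D5:**
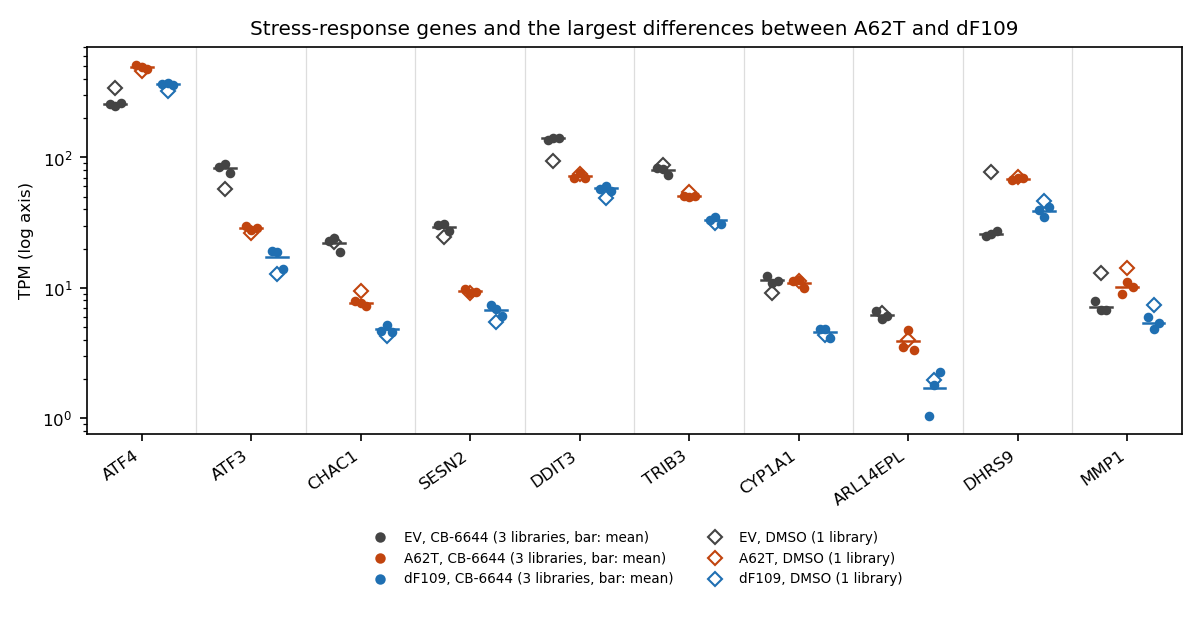
TPM on a log axis of 6 stress-response genes and of the first 4 of the genes with the largest rise in A62T against dF109, with dots for CB-6644 libraries, bars for their means and diamonds for DMSO libraries. ATF4 is lowest in EV (259, 250.4 and 261 TPM) while ATF3, CHAC1, SESN2, DDIT3 and TRIB3 are highest in EV, and dF109 is below A62T in all 10 genes.

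T3M-4, a basal-like pancreatic cancer line, was treated for 24 h with the same constructs and drug, with 3 libraries per genotype in another table. There 42.1% of the 11780 genes tested in both lines were higher in both variants than in EV and 6.54% were lower, and the median differences of these genes were 0.28 and 0.25. Of the 2111 AsPC-1 genes higher in both that were tested in T3M-4, 57.7% were higher there and 5.97% lower. Of the 3295 lower genes, 10.4% were lower in T3M-4 and 33.2% were higher. With median-of-ratios scaling the shares were 29.7% higher for the first group beside 19% of all genes, and 26.2% lower for the second beside 16.3%, with 13.5% of the second group higher. EDAR was higher in both lines, although it was low in T3M-4, with means of 0.665 TPM in EV, 1.99 in A62T and 1.66 in dF109. KAT5 had means of 15.9, 53.4 and 37.2 TPM in T3M-4, and log2 differences of 1.69 and 1.18.

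Several of the lower genes were higher in T3M-4. CHAC1 had means of 7.36 TPM in EV, 36.9 in A62T and 23.6 in dF109, and it was higher in both variants (log2 differences 2.19 and 1.57, adjusted p = 6.69e-07 and 9.35e-06 by limma). IL1A rose there by 1.11 with either variant and ATF3 by 0.75 and 0.62. With median-of-ratios scaling the differences were 1.93 and 1.34 for CHAC1, 0.82 and 0.86 for IL1A, and 0.47 and 0.37 for ATF3, all past the threshold. Of 31 stress response genes tested in T3M-4, 19 were higher in both variants (61.3%, beside 42.1% of all genes) and 2 lower, and with that scaling 16 were higher (51.6%, beside 19% of all genes) and 5 lower. Cytosolic ribosomal proteins also turned, with 77 of 78 lower in T3M-4 and 0 higher under either scaling. No test was made between the tables.

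Knockout of either subunit of the ring was measured in other AsPC-1 libraries, 4 each with sgRosa, sgRUVBL1 or sgRUVBL2 on day 5. All came from the same experiment. A further AsPC-1 experiment with sgRUVBL1, which had no sgRUVBL2 libraries, was not fitted here. Per the paper, each such group mixes independent sgRNAs, which the labels used here do not tell apart. The fit held no term for the guide, so libraries of different guides were treated as replicates. Among 12084 genes tested in both tables, 8.25% were lower in both knockouts and 26.4% were higher. Of the 2240 genes higher with both variants that were tested, 20.8% were lower in both knockouts and 10.4% were higher. Of the 3305 genes lower with both variants, 40.3% were higher in both knockouts and 3.63% were lower. The median log2 change of the first group was -0.15 after sgRUVBL1 and -0.06 after sgRUVBL2, and that of the second 0.33 and 0.26, against 0.16 and 0.14 for all genes. With median-of-ratios scaling 39.0% of the first group were lower, beside 17.8% of all genes, and 24.4% of the second were higher, beside 14.1%.

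Of the 10 genes with the largest rise in the variants, 8 were lower in both knockouts, beside 8.25% of all genes. EDAR had means of 39.7 TPM with sgRosa, 17.8 with sgRUVBL1 and 25.1 with sgRUVBL2, and FGF19 had 72.8, 36.9 and 41.7. KRT23 fell the most of the 10, by log2 changes of -3.16 and -1.89 (adjusted p = 3.80e-05 and 0.002203 by limma). Of the 9 lowest genes tested in the knockouts, 6 were higher in both, beside 26.4% of all genes. ATF3 rose from a mean of 4.77 TPM to 14.1 and 14.1. SESN2 and C11orf96 passed with neither knockout (SESN2 log2 changes 0.20 and 0.37, adjusted p = 0.311 and 0.0717). CHAC1, with means of 3.49, 2.91 and 3.95 TPM, also passed with neither (adjusted p = 0.525 and 0.898).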

How the data were processed

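RNA-seq libraries of AsPC-1 were poly-A selected. Per the paper's methods, the authors pseudo-aligned single-end reads to hg38 with kallisto and deposited TPM values per gene name, normalised within each library and corrected for length, so that every library sums to the same total. Reads shared by near-identical copies or overlapping genes are assigned by the aligner, and strand use is not given in the sources used here. No counts were used here, so the count model of the study could not be applied and the depth per library is unknown.

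TPM values were transformed as log2(TPM + 1). Genes averaging 1 TPM or more in the 9 libraries were fitted with limma 3.58.1 (R 4.3.3, group means, moderated with a mean-variance trend), with Benjamini-Hochberg adjustment over all genes tested and a threshold of 0.05. The fit had 6 residual degrees of freedom. T3M-4 and the knockouts were fitted in the same way, each in its own table. The script was tested on simulated data. All samples were grouped by their labels.

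Named genes were the top 10 in each direction by the smaller of both variants' log2 differences (a group mean of at least 5 TPM, no overlap with EV), up to 4 agreeing members and 2 called in neither comparison per list, the 5 largest differences each way between variants, the genes called in opposite directions (up to 5 by adjusted p), and genes the study names for CB-6644. Further list members named with values, and ATF4, TRIB3, KAT5 and MCRS1, were also singled out with their values seen. Members and lists were chosen with earlier results of these data known. Of the gene names, 534 matched no current or older symbol, 198 of them among genes tested. Alternatives were another pseudocount, other filters, median-of-ratios scaling, fits with fewer or more groups, a replicate block, a robust prior and leaving out each library.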

Additional observations from a re-analysis of the deposited data

Results flagged for a closer look

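A62T and dF109 moved 16 genes to opposite sides of EV in CB-6644, and 5 are given here, those with the lowest value of the larger of their adjusted p against EV. MMP1, a collagenase, was higher than EV with A62T (0.45) and lower with dF109 (-0.35), and the difference between the variants was 0.80 on the log2 scale (limma, adjusted p = 0.00346). LAMA3, a laminin chain, differed by 0.29 (adjusted p = 0.00534), the RNA-binding protein IGF2BP3 by 0.25 (adjusted p = 0.00911) and the metallothionein MT2A by 0.47 (adjusted p = 0.00391), all higher in A62T. AIG1 differed by -0.37 (adjusted p = 0.00718), lower in A62T. Each of the 5 differences between variants lost its call in the fit of 12 libraries in which DMSO formed 1 group. That group mixes the genotypes, so a gene that differs between them in DMSO has a wider residual spread in that fit. In DMSO, MT2A was at 799.7 TPM in EV against 496.2 in A62T and 439.9 in dF109, so all 3 genotypes were above their levels in CB-6644.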

How the results depend on the processing

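The counts of genes called for A62T against EV, for dF109 against EV, and higher or lower in both, stayed within 1.5 times of the reported values under every alternative run. Over the fits that each left out 1 library they ran from 6347 to 7512, from 5788 to 6647, from 1881 to 2446 and from 2903 to 3366. The 598 genes that differed between A62T and dF109 did not hold as a count. There were 394 with no filter on low values, 397 with only the groups compared in the fit and 143 with the replicate block. In the fit of 12 libraries of which the DMSO ones formed 1 group there were 36. That group mixes the genotypes, so genes that differ between them in DMSO lose calls more readily. There were 319 with 2 libraries per group (those highest on the second component left out, an alternative chosen after seeing the data), and from 156 (without dF109 replicate 1) to 876 (without EV replicate 3) when 1 library was left out. After the group mean was taken from each library, same-numbered libraries of different groups correlated from -0.448 to 0.276. Those with different numbers correlated from -0.550 to 0.470. With 3 libraries per group these values cannot settle whether the replicate numbers pair the libraries. With median-of-ratios scaling 625 genes higher in both were higher in T3M-4 and 862 lower ones lower, while 873 of the higher genes were lower and 806 of the lower genes were higher in both knockouts. FA2H with dF109, called in no fit reported here, changed sign to 0.010 with that scaling and 0.043 without EV replicate 3, and ran from -0.18 (without dF109 replicate 2) to 0.080 (without dF109 replicate 3) as libraries were left out. The causes were not tested. With 3 libraries per group and unknown depth, low-TPM genes carry an error that cannot be separated into counting and biology, and the DMSO comparisons rest on 1 library each.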
